A study of Homo sapiens with 11 samples.

Results

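A group of 44 genes for DNA replication and entry into S phase was followed by RNA-seq through a hypoxic time course in RWPE1 cells. The genes were a list fixed by symbol, and all 44 were found among the 60676 Ensembl genes of the count table and passed the filter on low counts, as did 19981 genes in all. RWPE1 is a line of prostate epithelial cells immortalised with a human papillomavirus, a virus whose E7 protein binds the retinoblastoma protein, and it is a single line in culture. Cells were left untreated in normoxia (0 h, 3 libraries) or were held at 1% O2 for 6 h (3 libraries), 12 h (3 libraries) or 24 h (2 libraries, with a further one not analysed here). The medium of the hypoxic cells also held 10 mM HEPES, a pH buffer, so the buffer and the low oxygen cannot be told apart. All groups were the same line in the same serum-free keratinocyte medium, and nothing in the labels says whether replicates were separate cultures, so p-values measure the spread between these samples.

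A replication origin is prepared in G1, when the origin recognition complex, CDC6 and CDT1 load the MCM2 to MCM7 ring onto DNA, a step called licensing. In S phase CDC45 and the GINS complex join the ring to form the working helicase, primase and polymerase alpha lay down primers, RFC places the PCNA clamp on DNA, and polymerases delta and epsilon extend the strands. Most of these genes are transcribed in a wave at the G1/S boundary under the E2F factors, together with cyclin E and the enzymes that supply deoxynucleotides. Oxygen enters this pathway directly, since the small subunit of ribonucleotide reductase needs it to form the radical used in catalysis, and severe hypoxia is known to slow DNA synthesis.

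Levels are given as CPM, the count per 1000000 counts of a library, after scaling by the trimmed mean of M-values (TMM), and changes as log2 fold changes with their standard error (SE) from edgeR's quasi-likelihood fit over all 11 libraries. A gene was called higher or lower at a Benjamini-Hochberg adjusted p under 0.05 over all 19981 genes. Every adjusted p below is from this test, refitted without the named library where a value is given without it. Library totals ran from 27496009 to 49488345 counts. Of the 2 libraries at 24 h, replicate 2 stood apart, with a TMM factor of 0.539 against 0.851 in replicate 1 and a distance between them of 139.9, against at most 87.1 between replicates at any other time. Scaling by library size alone moved the median of all genes at 6, 12 and 24 h to −0.32, −0.50 and −0.97, so every change below is relative to the TMM scale, where these medians were −0.0021, −0.033 and −0.065. The 10 hypoxia genes checked were called higher at every time, from EGLN3, a HIF target that hydroxylates HIF (log2 6.23 ± 0.42 SE at 6 h, adjusted p = 6.87e-07), to VEGFA, the angiogenic factor (1.24 ± 0.24 SE at 6 h, adjusted p = 0.00102). Basal epithelial markers were present in every library, at a summed 12801 to 16265 CPM in normoxia and 31123 to 57753 CPM at 24 h. This list did not move as a unit, with KRT17 called higher at all times and TP63, the basal-cell transcription factor, called lower (−1.72 ± 0.16 SE at 6 h, adjusted p = 5.43e-06). The summed endothelial, immune and luminal prostate markers did not exceed 0.471, 3.38 and 5.23 CPM in any library, and the fibroblast list, nearly all of it COL1A1, lay between 28.0 and 60.6 CPM.

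The promoters below are shown because genes with E2F letters, of the 4 forms searched, moved in opposite directions at 6 h. Of the 44 genes, 38 had an entry among the RefSeq promoters of GRCh38.p14, each covering 250 bases before to 50 bases after the start. MCM4, MCM5, GINS4, RPA2, CCNE2 and E2F8 had none. The letters searched for E2F, on both strands, were TTTCCCGC, TTTGGCGC, TTTCGCGC and TTTGCCGC, some of which overlap each other where they meet on opposite strands. At least 1 of them was present in 20 of the 38 promoters (52.6%) and in 908 of all 27305 (3.33%). The 250 bases before the start are printed 5′ to 3′ on the gene's strand, with the E2F letters in capitals, for E2F1 (chr20:33686386-33686635, minus strand), MCM6 (chr2:135876444-135876693, minus strand), LIG1 (chr19:48170345-48170594, minus strand), PCNA (chr20:5126623-5126872, minus strand) and UHRF1 (chr19:4909251-4909500, plus strand).
E2F1: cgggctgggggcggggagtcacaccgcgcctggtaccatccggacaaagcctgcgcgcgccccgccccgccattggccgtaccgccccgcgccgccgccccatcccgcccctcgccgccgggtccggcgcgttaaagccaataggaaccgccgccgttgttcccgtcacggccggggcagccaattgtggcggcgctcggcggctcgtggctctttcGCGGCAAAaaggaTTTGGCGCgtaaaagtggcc
MCM6: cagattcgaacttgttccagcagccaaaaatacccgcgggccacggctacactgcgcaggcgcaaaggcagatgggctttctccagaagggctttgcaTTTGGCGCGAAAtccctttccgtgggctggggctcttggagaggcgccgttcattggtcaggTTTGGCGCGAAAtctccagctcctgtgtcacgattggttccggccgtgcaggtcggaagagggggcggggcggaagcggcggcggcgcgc
LIG1: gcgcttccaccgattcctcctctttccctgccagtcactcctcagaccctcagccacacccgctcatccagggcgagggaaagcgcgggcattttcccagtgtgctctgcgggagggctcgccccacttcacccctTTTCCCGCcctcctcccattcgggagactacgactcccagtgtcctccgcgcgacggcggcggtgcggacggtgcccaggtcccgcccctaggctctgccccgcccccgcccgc
PCNA: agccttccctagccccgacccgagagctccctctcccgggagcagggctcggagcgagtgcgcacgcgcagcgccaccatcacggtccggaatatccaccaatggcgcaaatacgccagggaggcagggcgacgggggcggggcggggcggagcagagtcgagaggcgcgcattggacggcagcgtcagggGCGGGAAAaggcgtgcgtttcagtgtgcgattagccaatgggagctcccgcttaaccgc
UHRF1: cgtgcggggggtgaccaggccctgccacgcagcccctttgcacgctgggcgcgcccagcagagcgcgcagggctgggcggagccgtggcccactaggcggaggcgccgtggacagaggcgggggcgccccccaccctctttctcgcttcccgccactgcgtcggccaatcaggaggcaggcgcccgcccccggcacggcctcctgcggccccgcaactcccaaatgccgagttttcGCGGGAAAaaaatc
E2F1, MCM6 and LIG1 were lower at 6 h, and PCNA and UHRF1 were higher. The form TTTCCCGC was in LIG1, PCNA and UHRF1, while E2F1 held TTTGCCGC and TTTGGCGC, and MCM6 held TTTGGCGC and TTTCGCGC. Among genes with a promoter entry, the E2F letters were in 9 of 13 called lower at 6 h, in 3 of 9 called higher and in 8 of 16 not called. At 24 h they were in 6 of 8 called lower, in 3 of 13 called higher and in 11 of 17 not called. The letters CCAAT were in 20 of the 38 (52.6%) against 35.7% of all promoters, TTTGAA, a core of the cell cycle homology region of mitotic genes, was in 1 (2.63%) against 15.4%, and ACGTG, the core bound by HIF, was in 11 (28.9%) against 21.6%. A match of letters is a description of the window and not a binding site.

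The replication genes did not move as a block in hypoxia. At 6 h, 10 were called higher and 15 lower, against 25.1% of all tested genes called higher and 27.7% called lower, which is a share of 22.7% and 34.1% of the 44. At 12 h 13 were called higher and 12 lower, against 24.2% and 27.1% of all tested genes. At 24 h 14 were called higher and 11 lower, against 29.9% and 31.3%. The counts thus lay near the background at every time. Their median change was −0.17 at 6 h, −0.020 at 12 h and 0.19 at 24 h, and single genes ranged from −2.05 (PRIM1) to 1.76 (UHRF1) at 6 h and from −2.26 (E2F2) to 1.71 (GMNN) at 24 h. By library size alone, 3 were called higher and 19 lower at 6 h, 1 and 21 at 12 h, and 1 and 25 at 24 h. All 19981 tested genes shifted likewise, with 2713 higher and 7130 lower at 6 h, 2116 and 8444 at 12 h, and 2222 and 11305 at 24 h. On that scale RPA2 at 12 h and ORC6, RFC2, RFC5, FEN1 and SLBP at 24 h, all called higher on the TMM scale, had a change below 0, and GMNN alone was still called higher at 24 h. Dropping each library in turn gave 6 to 12 higher and 14 to 19 lower at 6 h, 5 to 13 and 7 to 16 at 12 h, and 11 to 15 and 7 to 12 at 24 h. The fewest calls of a higher level at 6 h and 12 h (6 and 5) came without 0 h replicate 2, and the fewest of a lower level at 12 h (7) came without 0 h replicate 1, 0 h replicate 3 or 12 h replicate 1. At 24 h the fewest lower calls (7) came without 0 h replicate 1 or 3. The median change at 24 h was 0.00012 when 24 h replicate 1 was dropped.

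**Figure D1:**
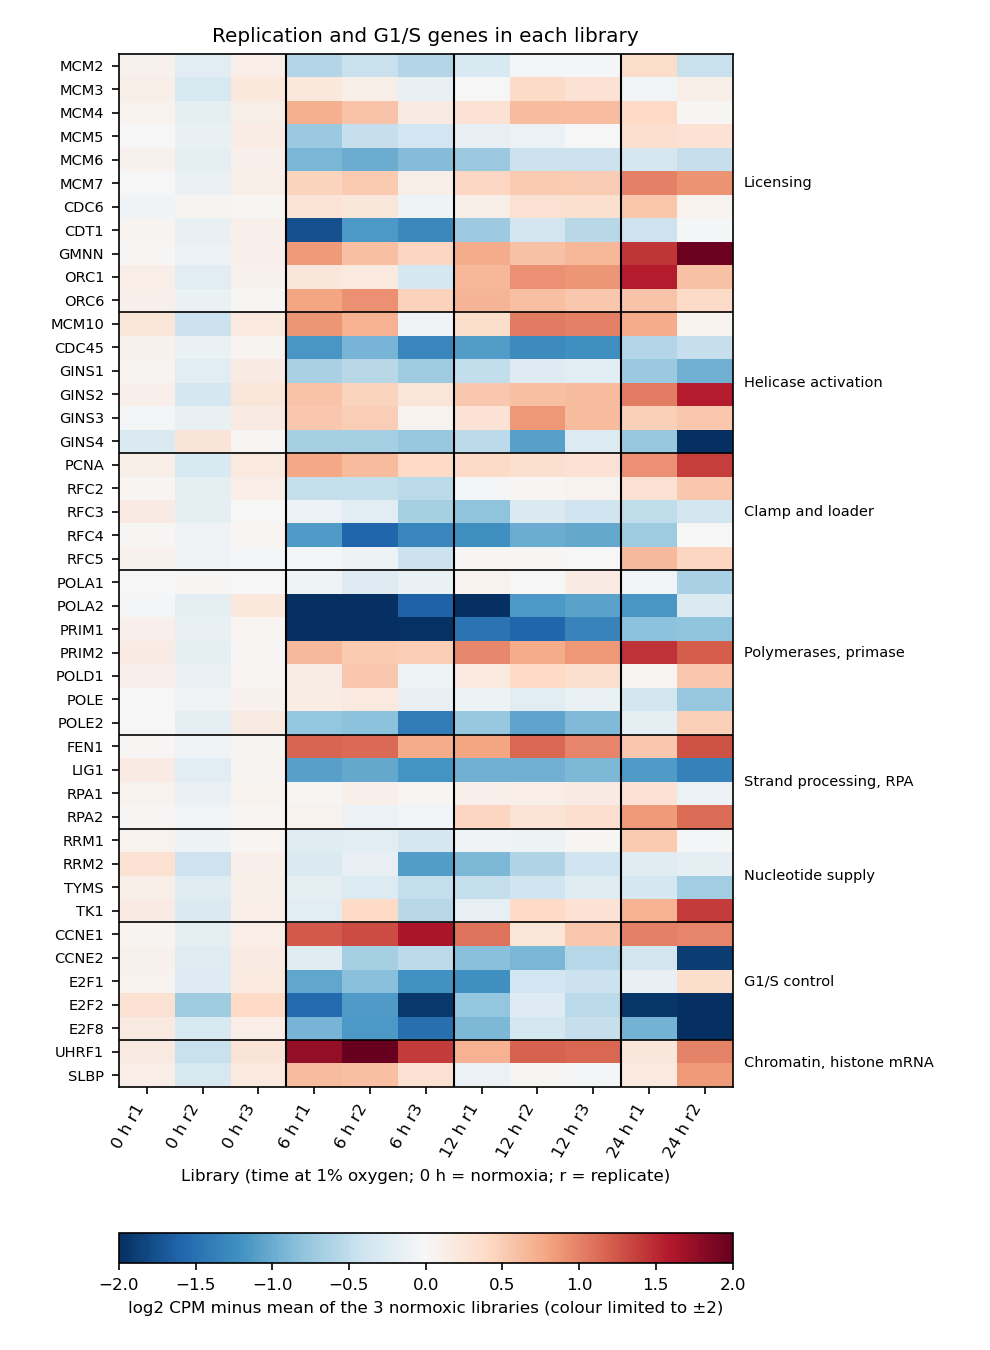
Each row is 1 of the 44 genes, grouped by role, and each column 1 of the 11 libraries. Colour is log2 CPM minus the mean of the 3 normoxic libraries. Red and blue rows stand side by side within the same role, and GMNN, PRIM2 and FEN1 are red while PRIM1, LIG1 and CDC45 are blue in all 8 hypoxic libraries.

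MCM7, GMNN, ORC6, PRIM2, FEN1 and CCNE1 (6 genes) were higher at all 3 times, a pattern shown by 14.8% of all tested genes. MCM6, CDC45, PRIM1 and LIG1 (4 genes) were lower at all 3 times, a pattern shown by 17.9% of tested genes. MCM3, CDC6, POLA1, POLD1, RPA1 and RRM1 were called at no time. RFC2 was the 1 gene called in both directions. A gene on the opposite strand shares 23.6% of the exonic bases of MCM2 and another 7.90% of those of MCM7, and a gene on the same strand shares 8.63% of those of POLD1, so the counts of these 3 genes are less certain. In bulk RNA, fewer cells in S phase and less RNA per cell cannot be told apart.

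**Figure D2:**
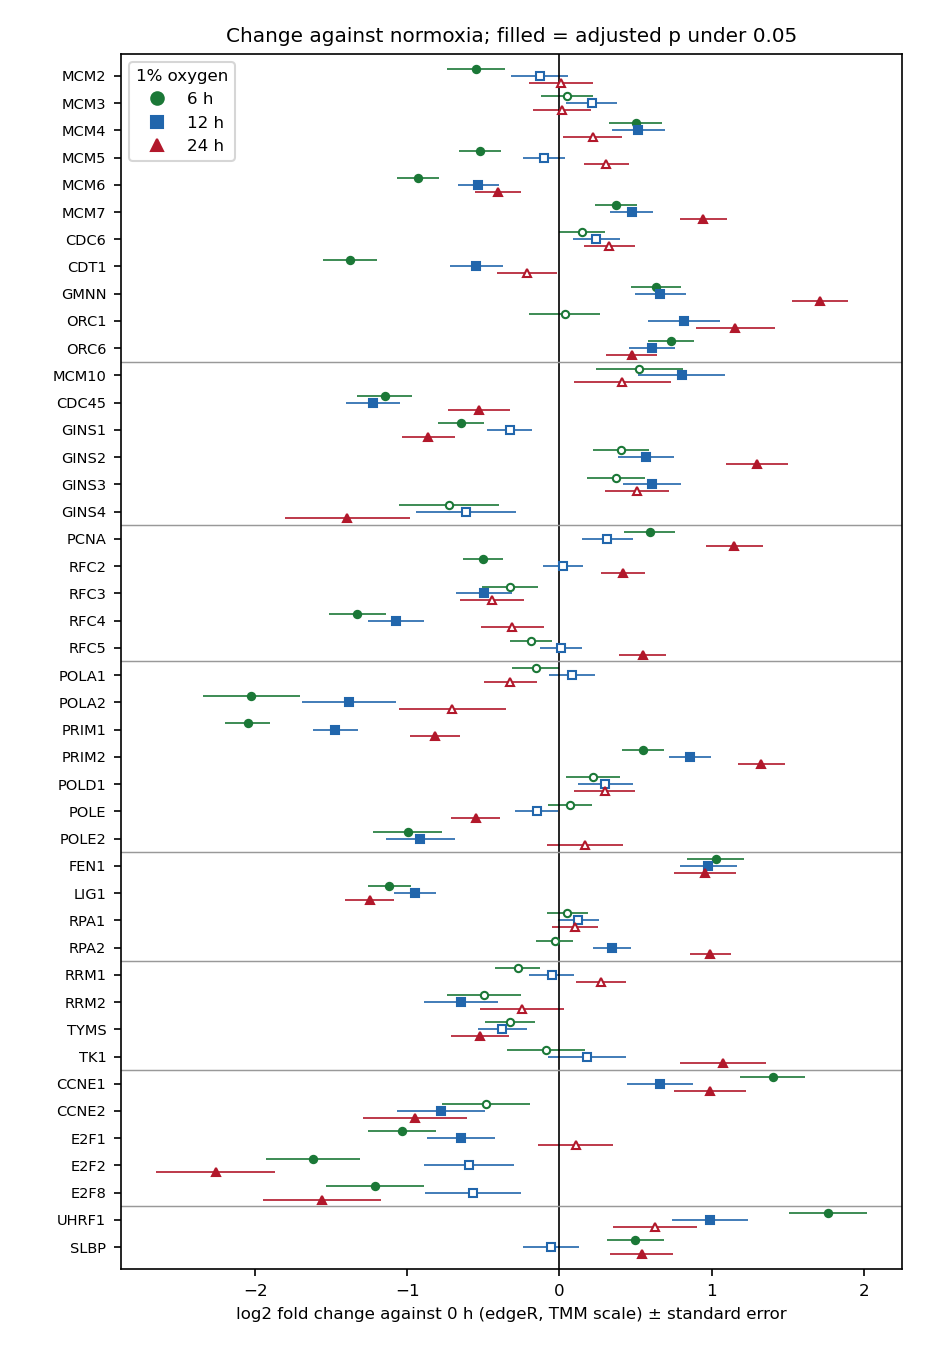
Points are log2 fold changes against 0 h on the TMM scale with their standard errors, for 6 h (circles), 12 h (squares) and 24 h (triangles), with genes in order of role. Filled points passed an adjusted p under 0.05. PRIM1 and POLA2 lie near −2 at 6 h and move toward 0 with time, while GMNN and PRIM2 lie farthest to the right at 24 h.

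Among the 11 licensing genes, 4 were higher and 4 lower at 6 h. CDT1, which loads the MCM ring, had the largest fall of this role at 6 h, and GMNN, encoding geminin, which binds CDT1 and blocks a second round of loading, had the largest rise at 24 h. CDT1 measured 88.2, 76.7 and 92.0 CPM in the normoxic replicates 1 to 3, 25.2, 38.6 and 35.0 CPM at 6 h, 51.7, 66.0 and 58.4 CPM at 12 h, and 64.1 and 83.4 CPM at 24 h. All 6 h and 12 h libraries lay below every normoxic library, and at 24 h 1 of 2 lay within the normoxic range. The change was −1.38 ± 0.18 SE at 6 h (adjusted p = 5.26e-05), −0.55 ± 0.18 SE at 12 h (adjusted p = 0.0205) and −0.22 ± 0.20 SE at 24 h (adjusted p = 0.358). GMNN measured 14.0, 12.7 and 14.8 CPM in normoxia, 25, 20.9 and 18.5 CPM at 6 h, 23.2, 20.6 and 21.9 CPM at 12 h, and 37.2 and 53.6 CPM at 24 h. Every hypoxic library was above every normoxic one, and both 24 h libraries were above all others. Its change was 0.63 ± 0.17 SE at 6 h (adjusted p = 0.00651), 0.66 ± 0.17 SE at 12 h (adjusted p = 0.00542) and 1.71 ± 0.18 SE at 24 h (adjusted p = 9.29e-06). GMNN and LIG1 were the only members whose 24 h calls stood under every alternative tried. The 12 h call of CDT1 did not hold without 0 h replicate 1 or 3 or 12 h replicate 1 or 3 (adjusted p up to 0.0807).

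The 6 subunits of the MCM ring went separate ways. MCM2 measured 71.1, 57.0 and 73.4 CPM in normoxia, 44.5, 49.2 and 44.2 CPM at 6 h, 54.0, 64.7 and 65.6 CPM at 12 h, and 85.8 and 49.2 CPM at 24 h. The 6 h libraries were below the normoxic range, and the 24 h libraries lay on either side of it. MCM2 was lower at 6 h (−0.55 ± 0.19 SE, adjusted p = 0.0270), a call lost without 0 h replicate 1 or 3 or 6 h replicate 1 or 3 (adjusted p up to 0.0961). At 24 h its change was 0.01 ± 0.21 SE with both libraries, −0.50 without replicate 1 (adjusted p = 0.0216) and 0.34 without replicate 2 (adjusted p = 0.0950). MCM6 fell at every time, from 69.1 ± 7.5 CPM (SD, n = 3) in normoxia to 36.3 ± 1.5 CPM (SD, n = 3) at 6 h, a change of −0.93 ± 0.14 SE (adjusted p = 0.000124). Its 24 h call (−0.40) did not hold without 0 h replicate 1 or 3, 12 h replicate 3 or 24 h replicate 2 (adjusted p up to 0.115). MCM5 was lower at 6 h (−0.52 ± 0.14 SE, adjusted p = 0.00632) and was not called later (−0.10 and 0.31). MCM7 rose at every time, reaching 0.95 ± 0.15 SE at 24 h (adjusted p = 0.00021), where its level was 252 ± 14 CPM (SD, n = 2) against 131 ± 11 CPM (SD, n = 3) in normoxia. Its 6 h call was lost when any of 7 libraries was left out, the 3 normoxic ones among them, with 6 h replicates 1 and 2 and 12 h replicates 2 and 3 (adjusted p up to 0.149), and its 12 h call without 0 h replicate 2 or 12 h replicate 2 (adjusted p up to 0.0641). MCM4 was higher at 6 h (0.50 ± 0.17 SE) and 12 h (0.52 ± 0.17 SE), with both calls lost without 0 h replicate 1 or 2 or without 1 of 2 hypoxic libraries (6 h replicates 1 and 2, 12 h replicates 2 and 3), at an adjusted p up to 0.114 and 0.104. MCM3 was not called at any time, with changes from 0.02 to 0.21.

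Both subunits of the origin recognition complex among the 44 were called higher, ORC1 at 12 h and 24 h and ORC6 at every time. Subunits outside the 44 did not all follow. From normoxia to 6 h the mean of ORC5 went from 14.0 to 5.83 CPM and that of ORC3 from 27.3 to 17.3 CPM. ORC4 went from 21.2 to 26.7 CPM and ORC2 from 26.1 to 25.4 CPM. At 24 h ORC5 was at 22.8 CPM (n = 2). ORC1, the largest subunit of the complex, was at 14.3 ± 1.9 CPM (SD, n = 3) in normoxia and 25.2 ± 2.4 CPM (SD, n = 3) at 12 h, a change of 0.82 ± 0.24 SE (adjusted p = 0.0117), lost without 0 h replicate 2 (adjusted p = 0.0545). At 24 h the 2 libraries measured 42.2 and 21.4 CPM, both above the normoxic range, and the call (1.16 ± 0.26 SE) did not hold without replicate 1 (0.53, adjusted p = 0.0532). ORC6 was highest at 6 h (0.73 ± 0.15 SE, adjusted p = 0.00138), and its 24 h call (0.48 ± 0.17 SE) did not hold without 0 h replicate 2 or 3, 12 h replicate 2 or 24 h replicate 1 (adjusted p up to 0.140). CDC6, the loading ATPase, stayed between 36.8 and 56.8 CPM in all libraries, with changes of 0.15, 0.24 and 0.33 that did not pass the test (adjusted p = 0.431, 0.197 and 0.109), and without 24 h replicate 2 the last was 0.53 (adjusted p = 0.00829).

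CDC45 and the GINS genes make up the parts that switch the loaded ring on, and they too split. CDC45 measured 6.08, 5.20 and 5.94 CPM in normoxia, 2.53, 2.98 and 2.27 CPM at 6 h, 2.6, 2.34 and 2.42 CPM at 12 h, and 3.81 and 4.14 CPM at 24 h. Every hypoxic library was below every normoxic one, with 24 h above 6 h and 12 h. The change was −1.15 ± 0.18 SE at 6 h (adjusted p = 0.000200), −1.22 ± 0.18 SE at 12 h (adjusted p = 0.000168) and −0.53 ± 0.20 SE at 24 h (adjusted p = 0.0375), the last lost without 0 h replicate 1 or 3, 12 h replicate 3 or 24 h replicate 1 (adjusted p up to 0.107). GINS2 measured 13.2, 9.84 and 14.6 CPM in normoxia, 18.5, 16.8 and 14.7 CPM at 6 h, 18.0, 18.8 and 19.3 CPM at 12 h, and 25.2 and 36.8 CPM at 24 h. Every hypoxic library was above the normoxic range, 6 h replicate 3 only just, and the 2 libraries at 24 h were the highest. Its change was 0.40 ± 0.18 SE at 6 h (adjusted p = 0.0821), 0.57 ± 0.18 SE at 12 h (adjusted p = 0.0203) and 1.30 ± 0.20 SE at 24 h (adjusted p = 0.000147), and the 12 h call did not hold without 0 h replicate 2 or 12 h replicate 2 or 3 (adjusted p up to 0.0950). Of the other 3 GINS subunits, GINS1 was lower at 6 h (−0.65 ± 0.15 SE) and 24 h (−0.86 ± 0.17 SE, adjusted p = 0.000954). GINS3 was higher at 12 h (0.61 ± 0.19 SE), a call lost without 0 h replicate 1 or 2 or 12 h replicate 2 (adjusted p up to 0.107). GINS4 was lower at 24 h (−1.39 ± 0.41 SE), where its 2 libraries held 1.71 and 0.490 CPM, and without replicate 2 the change was −0.81 (adjusted p = 0.0637). Over 23.4% of the exonic bases of GINS4 another gene lies on the opposite strand, and over 10.9% of those of GINS3. MCM10, which stabilises the helicase, was higher at 12 h (0.81 ± 0.29 SE), a call lost without 0 h replicate 2 or 3 or 12 h replicate 2 or 3 (adjusted p up to 0.128).

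PCNA was higher at 6 h and 24 h, while RFC2 and RFC4, subunits of its loader, were lower at 6 h. PCNA, the sliding clamp that holds polymerases on DNA, measured 99, 74.6 and 104 CPM in normoxia, 156, 143 and 121 CPM at 6 h, 120, 115 and 112 CPM at 12 h, and 173 and 239 CPM at 24 h. Every hypoxic library lay above the normoxic ones, and the 24 h libraries above all others. The change was 0.59 ± 0.17 SE at 6 h (adjusted p = 0.0106), 0.32 ± 0.17 SE at 12 h (adjusted p = 0.135) and 1.15 ± 0.19 SE at 24 h (adjusted p = 0.000199), and the 6 h call did not hold without 0 h replicate 2 (adjusted p = 0.0575). RFC4, a subunit of the clamp loader, measured 37.7, 35.2 and 37.9 CPM in normoxia, 16.9, 12.3 and 15.0 CPM at 6 h, 15.8, 18.6 and 18.2 CPM at 12 h, and 22.5 and 37.1 CPM at 24 h. The 6 h and 12 h libraries were all below the normoxic range, and 1 of 2 at 24 h was inside it. RFC4 fell by 1.33 ± 0.19 SE on the log2 scale at 6 h (adjusted p = 8.93e-05) and by 1.07 ± 0.18 SE at 12 h (adjusted p = 0.00048), and differed by −0.31 ± 0.21 SE at 24 h (adjusted p = 0.207), or −0.73 without replicate 2 (adjusted p = 0.00434).

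RFC2, another loader subunit, measured 26.3, 22.6 and 28.0 CPM in normoxia, 18.4, 18.4 and 17.5 CPM at 6 h, 25.1, 26.2 and 27 CPM at 12 h, and 31.5 and 37.0 CPM at 24 h. All 6 h libraries were below the normoxic range, the 12 h libraries were inside it and the 24 h libraries above it. It was lower at 6 h (−0.50 ± 0.13 SE, adjusted p = 0.00626) and higher at 24 h (0.42 ± 0.14 SE, adjusted p = 0.0244). The 24 h call did not hold without 0 h replicate 1 or 2, 12 h replicate 2 or 24 h replicate 2 (adjusted p up to 0.111), and by library size alone the change was −0.52. RFC3 was lower at 12 h (−0.49 ± 0.18 SE), which rested on 5 libraries singly, 0 h replicates 1 and 3, 6 h replicate 2 and 12 h replicates 1 and 3 (adjusted p up to 0.152). RFC5 was higher at 24 h (0.55 ± 0.15 SE, adjusted p = 0.00823), and genes on the opposite strand together share 10.6% of its exonic bases.

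The primase and polymerase alpha genes held the largest falls at 6 h. PRIM1, the catalytic subunit of primase, measured 18.7, 15.6 and 17.8 CPM in normoxia, 4.10, 4.12 and 4.36 CPM at 6 h, 6.19, 5.75 and 6.83 CPM at 12 h, and 9.84 and 9.92 CPM at 24 h. The 4 groups did not overlap. Its change was −2.05 ± 0.15 SE at 6 h (adjusted p = 1.07e-06), −1.47 ± 0.15 SE at 12 h (adjusted p = 1.09e-05) and −0.81 ± 0.16 SE at 24 h (adjusted p = 0.000983). PRIM2, the large subunit that holds the catalytic one to polymerase alpha, measured 19.4, 15.1 and 17.6 CPM in normoxia, 27, 24.9 and 24.3 CPM at 6 h, 33.7, 29.0 and 31.7 CPM at 12 h, and 47.1 and 40.1 CPM at 24 h. These groups did not overlap either. Both genes were lowest in hypoxia at 6 h and highest in hypoxia at 24 h, but normoxia lay above all hypoxic libraries for PRIM1 and below all of them for PRIM2. The change of PRIM2 was 0.55 ± 0.14 SE at 6 h (adjusted p = 0.00529), 0.86 ± 0.14 SE at 12 h (adjusted p = 0.000332) and 1.33 ± 0.15 SE at 24 h (adjusted p = 1.57e-05). PRIM2 has a close copy on the same chromosome, PRIM2BP, and PRIM1 shares 15.1% of its exonic bases with same-strand genes, so counting could have divided or lost reads of both.

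POLA2, the accessory subunit of polymerase alpha, was the lowest of the 44 per length in normoxia and fell with PRIM1 (−2.02 ± 0.32 SE at 6 h, adjusted p = 0.000226, and −1.38 ± 0.31 SE at 12 h, adjusted p = 0.00272). It measured 1.37 and 2.56 CPM at 24 h against 3.17 ± 0.45 CPM (SD, n = 3) in normoxia, a change of −0.70 ± 0.35 SE (adjusted p = 0.100), or −1.22 without replicate 2 (adjusted p = 0.0224). Its counts ran from 17 to 52 at 6 h, and 16.8% of its exonic bases are shared with same-strand genes. POLA1, the catalytic subunit, kept between 14.2 and 25 CPM and was not called at any time, although without 24 h replicate 1 its 24 h change was −0.71 (adjusted p = 0.00104). POLE2, a subunit of polymerase epsilon, was lower at 6 h (−1.0 ± 0.23 SE, adjusted p = 0.00277) and 12 h (−0.91 ± 0.23 SE, adjusted p = 0.00504), and its 24 h libraries fell on either side of the normoxic range at 6.93 and 11.1 CPM. POLE, the catalytic subunit, was lower at 24 h (−0.55 ± 0.16 SE, adjusted p = 0.0106) and was not called at 6 h or 12 h (0.07 and −0.15). POLD1, of polymerase delta, was called at no time, with changes of 0.22, 0.30 and 0.30.

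The enzymes that finish Okazaki fragments moved apart. FEN1, the nuclease that trims the flap ahead of the growing strand, measured 29.3, 27.5 and 29.9 CPM in normoxia, 65.0, 63.2 and 48.6 CPM at 6 h, 50.2, 63.8 and 56.8 CPM at 12 h, and 42.1 and 70.2 CPM at 24 h. All hypoxic libraries were above the normoxic ones. Its change was 1.03 ± 0.19 SE (adjusted p = 0.000641), 0.98 ± 0.19 SE (adjusted p = 0.00105) and 0.96 ± 0.21 SE (adjusted p = 0.00156) at 6, 12 and 24 h, the last being 0.53 without 24 h replicate 2 (adjusted p = 0.0191) and −0.039 by library size alone. LIG1, the ligase that seals the nick, measured 39.0, 29.7 and 36 CPM in normoxia, 16.2, 17.0 and 15.1 CPM at 6 h, 17.8, 17.8 and 18.7 CPM at 12 h, and 15.9 and 13.5 CPM at 24 h. Every hypoxic library was below every normoxic library. LIG1 changed by −1.12 ± 0.14 SE at 6 h (adjusted p = 4.14e-05), −0.95 ± 0.14 SE at 12 h (adjusted p = 0.000174) and −1.25 ± 0.16 SE at 24 h (adjusted p = 4.01e-05). RPA1 and RPA2 encode subunits of the protein that coats single-stranded DNA. RPA1 was not called at any time (changes of 0.05, 0.13 and 0.10), while RPA2 rose to 0.35 ± 0.12 SE at 12 h and 0.99 ± 0.14 SE at 24 h (adjusted p = 5.71e-05), and the 12 h call did not hold without any 1 of the 6 libraries of 0 h and 12 h (adjusted p up to 0.103).

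**Figure D3:**
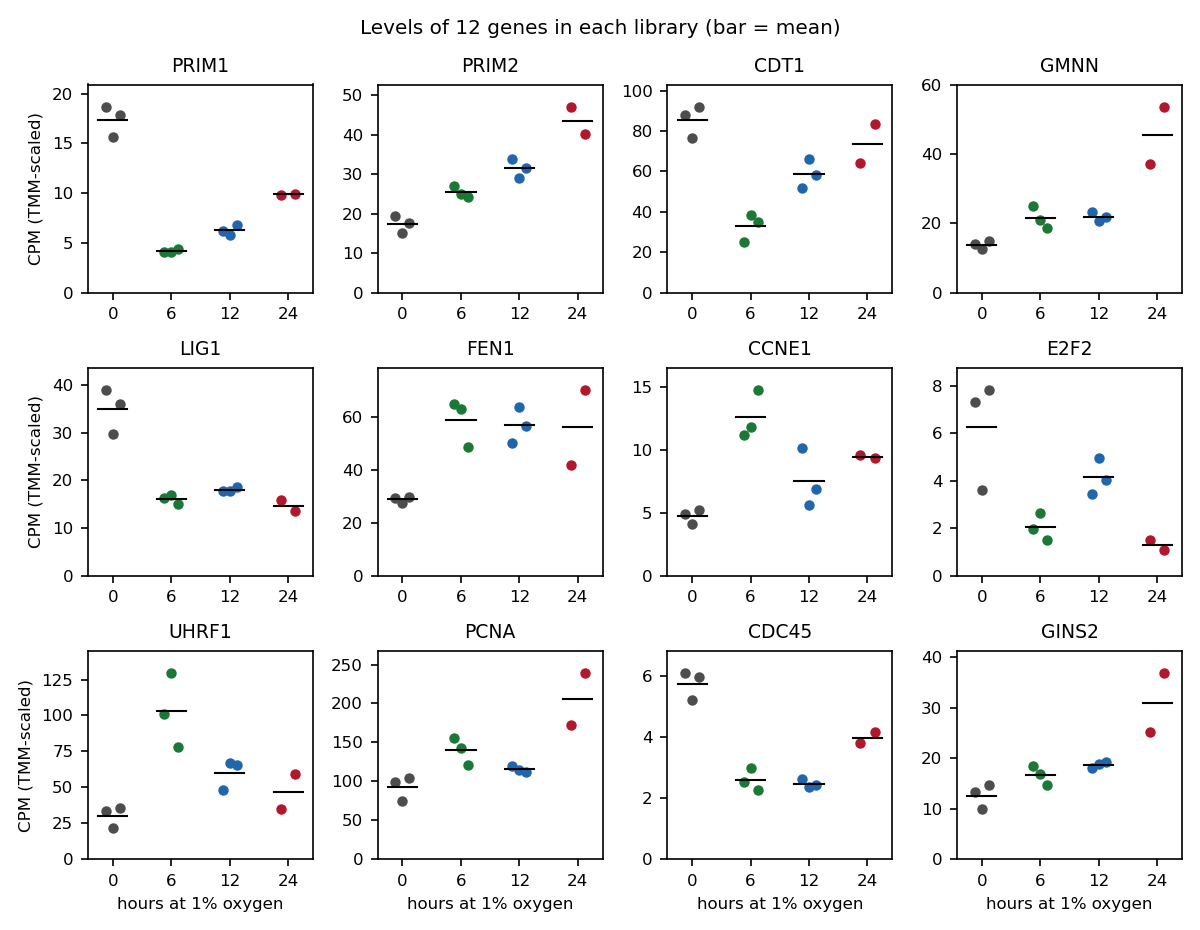
TMM-scaled CPM of 12 genes in each library, by hours at 1% oxygen, with a bar at the mean of each group and axes that start at 0. PRIM1, CDC45 and LIG1 lie below all normoxic libraries at every time, while PRIM2, GMNN, FEN1 and PCNA lie above them.

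Of the 4 genes of nucleotide supply, TK1 was higher at 24 h, RRM2 was lower at 12 h and TYMS was lower at 24 h. TK1, the thymidine salvage kinase, measured 28.3, 20.8 and 27.7 CPM in normoxia, 21.6, 33.6 and 17.2 CPM at 6 h, 22.7, 33.5 and 30.9 CPM at 12 h, and 41.2 and 66.7 CPM at 24 h. The groups overlapped except at 24 h, which lay above normoxia. The 24 h change was 1.07 ± 0.28 SE (adjusted p = 0.00558), and it was 0.67 without 24 h replicate 2 (adjusted p = 0.0779). RRM2, the small subunit of ribonucleotide reductase, measured 64.6, 39.4 and 56.2 CPM in normoxia, 42.8, 46.7 and 24.0 CPM at 6 h, 28.0, 34.6 and 39.6 CPM at 12 h, and 44.1 and 46.0 CPM at 24 h. Overlap with normoxia was present at every time. RRM2 was lower at 12 h (−0.65 ± 0.24 SE, adjusted p = 0.0406), a call lost without 0 h replicate 1 or 3 or 12 h replicate 1 or 2 (adjusted p up to 0.162). RRM1, the large subunit, was called at no time, with changes of −0.27, −0.05 and 0.27, the last being 0.51 without 24 h replicate 2 (adjusted p = 0.00311). TYMS, which makes thymidylate, was lower at 24 h (−0.52 ± 0.19 SE), a call lost without 0 h replicate 1 or 3 or 24 h replicate 2 (adjusted p up to 0.117), and 47.9% of its exonic bases lie opposite other genes.

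Of the 5 genes of G1/S control, CCNE1 rose and the others fell at some time. CCNE1, cyclin E1, which activates CDK2 for S phase entry, measured 4.92, 4.13 and 5.22 CPM in normoxia, 11.2, 11.8 and 14.7 CPM at 6 h, 10.1, 5.63 and 6.88 CPM at 12 h, and 9.54 and 9.37 CPM at 24 h. Every hypoxic library was above the normoxic range. Its change was 1.40 ± 0.22 SE at 6 h (adjusted p = 0.000184), 0.66 ± 0.22 SE at 12 h (adjusted p = 0.0219) and 0.99 ± 0.24 SE at 24 h (adjusted p = 0.00328), and the 12 h call did not hold without 0 h replicate 1 or 2 or 12 h replicate 1 (adjusted p up to 0.118). CCNE2, the second cyclin E, went the other way (−0.78 ± 0.29 SE at 12 h and −0.95 ± 0.34 SE at 24 h). Its 12 h call was lost in 7 of 11 cases of 1 library left out (all but 0 h replicate 2, 6 h replicate 1 and both at 24 h, adjusted p up to 0.119), and its 24 h call without 0 h replicate 1 or 3 or 24 h replicate 2 (adjusted p up to 0.167). Genes on the opposite strand cover 37.1% of the exonic bases of CCNE2.

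E2F1 and E2F2, activators of the G1/S wave, were both lower at 6 h. E2F2 measured 7.33, 3.60 and 7.81 CPM in normoxia, 1.98, 2.66 and 1.52 CPM at 6 h, 3.45, 4.95 and 4.04 CPM at 12 h, and 1.5 and 1.09 CPM at 24 h. Normoxic replicate 2 stood well below the other two, yet the 6 h and 24 h libraries were below it. The change of E2F2 was −1.62 ± 0.31 SE at 6 h (adjusted p = 0.000848), −0.59 ± 0.30 SE at 12 h (adjusted p = 0.112) and −2.26 ± 0.39 SE at 24 h (adjusted p = 0.00032). E2F1 fell from 53.7 ± 8.5 CPM (SD, n = 3) to 26.2 ± 3.4 CPM (SD, n = 3) at 6 h (−1.03 ± 0.22 SE, adjusted p = 0.00202) and was also called lower at 12 h (−0.64), which did not hold without 0 h replicate 1 or 3 or 12 h replicate 1 (adjusted p up to 0.104). At 24 h it differed by 0.11 ± 0.25 SE (adjusted p = 0.723). E2F8, a repressor that is itself an E2F target, was lower at 6 h (−1.21 ± 0.32 SE, adjusted p = 0.00714) and 24 h (−1.56 ± 0.39 SE, adjusted p = 0.00392), with 5.01 and 1.53 CPM in the 2 libraries at 24 h.

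UHRF1 and SLBP were both higher at 6 h. UHRF1, which carries DNA methylation over to the new strand, measured 33.6, 21.8 and 35.4 CPM in normoxia, 101, 129 and 78.3 CPM at 6 h, 48.1, 66.8 and 65.6 CPM at 12 h, and 34.8 and 59.0 CPM at 24 h. All libraries at 6 h were above those at every other time, and 1 of 2 at 24 h fell within the normoxic range. Its change was 1.76 ± 0.26 SE (adjusted p = 0.000117), 0.99 ± 0.25 SE (adjusted p = 0.0059) and 0.63 ± 0.28 SE (adjusted p = 0.0653) in order of time, the last being 0.91 without 24 h replicate 1 (adjusted p = 0.0132). SLBP, which binds the stem-loop of histone mRNA, measured 34.4, 25.3 and 36.1 CPM in normoxia, 48.7, 47.8 and 38.9 CPM at 6 h, 29.0, 32.2 and 31.0 CPM at 12 h, and 36.1 and 56.8 CPM at 24 h. All 6 h libraries were above the normoxic range and the 12 h libraries inside it, and 24 h replicate 1 was level with the highest normoxic library. SLBP was called higher at 6 h (0.50 ± 0.19 SE, adjusted p = 0.0381) and 24 h (0.54 ± 0.21 SE, adjusted p = 0.0372). The 6 h call did not hold without 0 h replicate 1 or 2, 6 h replicate 1 or 2 or 12 h replicate 2 or 3 (adjusted p up to 0.162), and the 24 h call without 0 h replicate 1 or 2, 12 h replicate 2 or 3 or 24 h replicate 2 (adjusted p up to 0.484).

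With 3 libraries against 3, the smallest exact two-sided permutation p of a single gene is 0.1, so the calls above rest on the fit across all genes. Of 25 members called at 6 h, 20 kept their call whichever library was left out, as did 12 of 25 at 12 h and 15 of 25 at 24 h. At 6 h 17 of them were called under all alternatives, among them CDT1, CDC45, RFC4, PRIM1, LIG1, FEN1, CCNE1, E2F1 and UHRF1. At 12 h 8 of 25 and at 24 h 2 of 25 were called under all alternatives, and 1 of the 25 at 24 h was called in the opposite direction in some alternative. The same counts were not made over all called genes, so they describe these calls and are no result about the members.

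Pairs of genes with related roles were set against each other within each library, as log2 ratios of CPM per kilobase of exon. The pairs were chosen after their values were seen, so the ratios are a description with no test. PRIM1 to PRIM2 was 0.72, 0.83 and 0.79 in normoxia, −1.95, −1.82 and −1.71 at 6 h, −1.67, −1.56 and −1.44 at 12 h, and −1.49 and −1.24 at 24 h. CDT1 to GMNN lay between 2.44 and 2.5 in normoxia, between −0.15 and 0.76 at 6 h, between 1.00 and 1.52 at 12 h, and at 0.63 and 0.48 at 24 h. CCNE1 to CCNE2 averaged −0.0067 in normoxia and 1.87, 1.40 and 2.14 at the hypoxic times. No hypoxic library overlapped normoxia in these ratios. The same held for LIG1 to FEN1 (−2.10 in normoxia, −4.23, −4.02 and −4.26 afterwards), CDC45 to GINS2 (−1.0, then −2.57, −2.82 and −2.83) and MCM6 to MCM4 (0.20, then −1.21, −0.85 and −0.41). A ratio within a library does not depend on its scaling factor. Because the pairs were chosen with their values known, their separation from normoxia is no result, and other gene pairs were not counted.

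**Figure D4:**
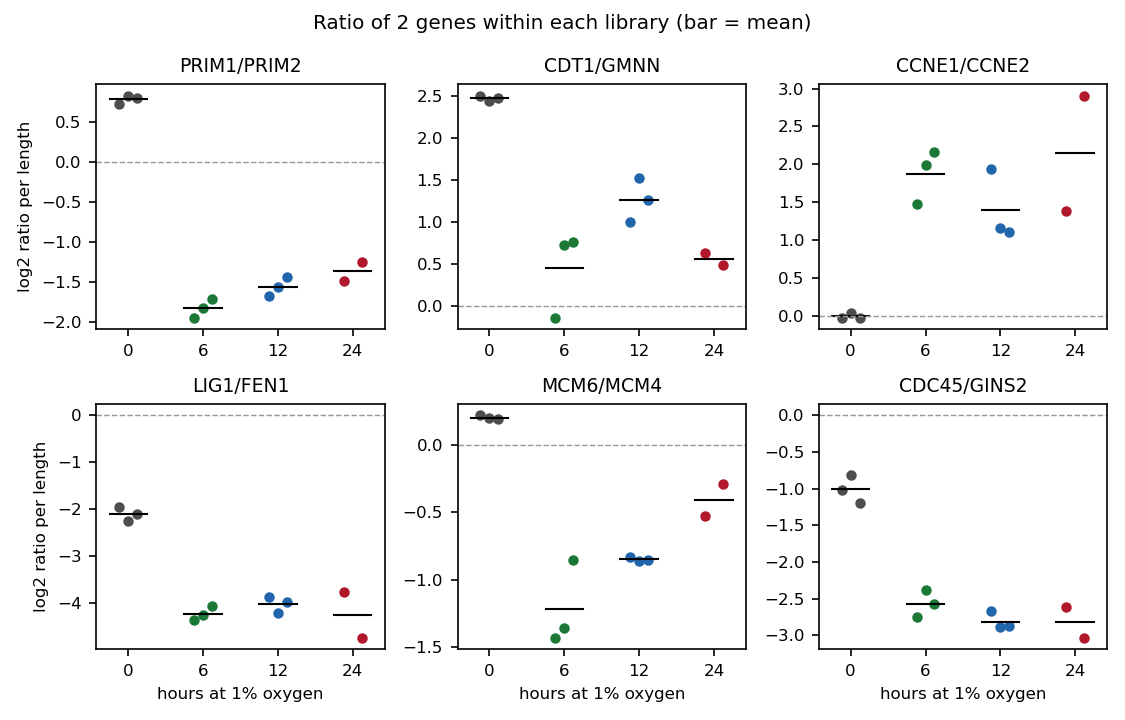
Log2 ratio of the per-length levels of 2 genes within each library, by hours at 1% oxygen, with a bar at the group mean and a dashed line at equal levels. All 8 hypoxic libraries lie apart from the 3 normoxic ones in each of the 6 ratios, which were chosen after their values were seen. PRIM1/PRIM2 goes from 0.78 to −1.83 between 0 h and 6 h.

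Levels per length in normoxia were highest for PCNA, at 66.0 ± 11.3 CPM per kilobase of exon (SD, n = 3), followed by CDT1 (31.0 ± 2.90), MCM3 (29.3 ± 5.43) and MCM7 (26.4 ± 2.31). The order of these last 3 was not tested, since the SD is a spread between libraries that the genes share. The lowest were E2F2 (1.14 ± 0.422), GINS4 (0.548 ± 0.105) and POLA2 (0.264 ± 0.0374). At 24 h PCNA was at 147 ± 33.4 CPM per kilobase (SD, n = 2) and MCM7 second at 50.9 ± 2.78. POLA2 remained lowest at 0.164 ± 0.0702.

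From 6 h to 12 h, 3 members were called higher (CDT1, RFC2 and PRIM1) and 0 lower in edgeR, against 1.88% and 3.07% of all tested genes. At an unadjusted p under 0.05 there were 10 higher and 3 lower, and DESeq2 called 7 and 2. Without either 24 h library edgeR called 10 higher and 3 lower, and without 6 h replicate 1 or 2 or 12 h replicate 2 or 3 it called 0 higher. From 12 h to 24 h, 14 were called higher and 2 lower, against 15.1% and 13.3% of all tested genes. The 14 were MCM7, GMNN, CDC45, GINS2, PCNA, RFC4, RFC5, PRIM1, PRIM2, POLE2, RPA2, TK1, E2F1 and SLBP, and their changes ran from 0.47 to 1.08. GINS1 (−0.53) and E2F2 (−1.67) were the 2 called lower. These calls depended on the libraries in the fit. Without 24 h replicate 2, 9 were higher and 0 lower, and without 24 h replicate 1, 13 and 7. Without 12 h replicate 2 or 3, 6 were higher and 1 was lower. With only the 12 h and 24 h libraries in the edgeR fit there were 0 calls in either direction, among the members and among all 19981 tested genes. In that fit 13 members were higher and 2 lower at an unadjusted p under 0.05. By library size alone 1 was higher (GMNN) and 7 were lower, against 848 higher and 4610 lower of all 19981 tested genes.

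The 2 libraries at 24 h agreed in side for most members. Both were above the normoxic range for 17 members and both below it for 14. The same counts were not made over all tested genes, so they describe the 2 libraries and are no result about these members. MCM2 was above in replicate 1 and below in replicate 2, and POLE2 the reverse. The ratio of replicate 2 to replicate 1 ran from 0.287 (GINS4) to 1.87 (POLA2), and it was between 0.8 and its inverse for 17 members, above 1.5 for 7 and below the inverse of 1.5 for 7.

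**Figure D5:**
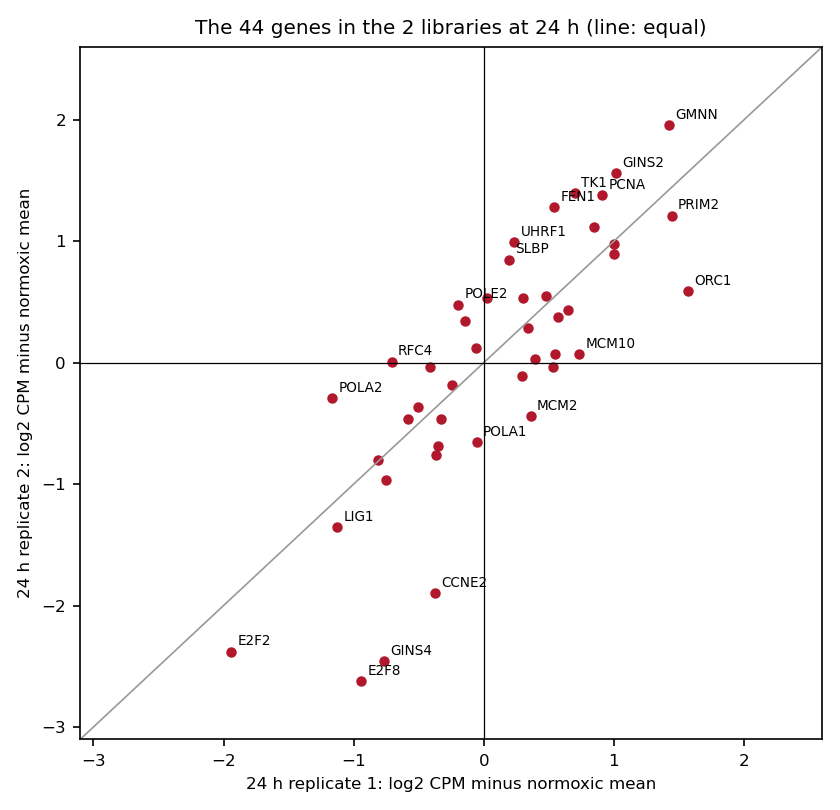
Each point is 1 of the 44 genes, with log2 CPM minus the normoxic mean in 24 h replicate 1 on the x axis and in replicate 2 on the y axis, and a line where both are equal. GMNN, PRIM2 and E2F2 are far from 0 in both, while GINS4, CCNE2 and E2F8 are far lower in replicate 2 and MCM2 changes side.

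The rest of the replication pathway was covered by a list of 40 other genes, among them further polymerase subunits, licensing and checkpoint factors and histone chaperones. Of these, 5 were higher and 15 lower at 6 h, 4 and 13 at 12 h, and 8 and 10 at 24 h, with medians of −0.28, −0.25 and −0.088. Of all tested genes, 25.1% were higher and 27.7% lower at 6 h, 24.2% and 27.1% at 12 h, and 29.9% and 31.3% at 24 h. By the average of the 3 times POLE4, a small subunit of polymerase epsilon, was highest (1.00 ± 0.25 SE at 6 h and 2.30 ± 0.27 SE at 24 h, adjusted p = 1.9e-05). ASF1B, a chaperone that hands new histones to chromatin, was lowest, from 21.7 ± 2.36 CPM (SD, n = 3) in normoxia to 2.86 ± 0.638 CPM (SD, n = 3) at 6 h (−2.91 ± 0.22 SE, adjusted p = 1.51e-06). Of 27 other G1/S control genes, 12 were higher and 5 lower at 6 h, 9 and 5 at 12 h, and 9 and 6 at 24 h, to be read against the same shares of all tested genes. CDK6, the kinase partner of the D cyclins, was highest by the average of the 3 times (1.81 ± 0.16 SE at 6 h, adjusted p = 3.91e-06, and 0.35 ± 0.17 SE at 24 h, adjusted p = 0.0999). At 24 h alone the changes of this list ran from −1.69 to 1.89. CDKN2C, an inhibitor of CDK6, was lowest by the same average (−2.33 ± 0.22 SE at 6 h, adjusted p = 6.38e-06).

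Of 30 mitosis genes, 8, 10 and 8 were lower at 6, 12 and 24 h, near the 27.7%, 27.1% and 31.3% of all tested genes called lower. The others were not called, so that 0 were called higher, against 25.1%, 24.2% and 29.9% of all tested genes. A change below 0 was seen in 28, 29 and 25 of the 30, against 10008, 10252 and 10356 of all 19981 tested genes. At an unadjusted p under 0.05, 0 were higher in edgeR, limma-voom or DESeq2 fits of all libraries. The medians of the list were −0.55, −0.59 and −0.27. With only the 24 h and normoxic libraries in the edgeR fit, 2 were higher at an unadjusted p under 0.05 and 1 of them was called. HMMR, a spindle protein, was the lowest (−3.13 ± 0.21 SE at 6 h, adjusted p = 6.16e-07), and CDC20, an activator of the anaphase-promoting complex, the highest (0.30 ± 0.26 SE, adjusted p = 0.341). Their summed level was 1290 to 1788 CPM in normoxia, 571 to 1395 CPM at 6 h, 770 to 1309 CPM at 12 h and 1013 to 1262 CPM at 24 h. The lowest sums were in 6 h replicate 3 (571 CPM) and 12 h replicate 1 (770 CPM). Among the members, 6 h replicate 3 had the lowest median (−0.37 against the normoxic mean, with 31 of 44 below it) and a summed level of 1536 CPM, and normoxic replicate 2 was below the normoxic mean in 41 of 44 (median −0.18). The summed level of the members was 1506 to 1846 CPM in normoxia, 1536 to 1884 CPM at 6 h, 1702 to 1914 CPM at 12 h and 2143 to 2154 CPM at 24 h, so that normoxia overlapped 6 h and 12 h. Without 6 h replicate 3, 12 members were higher and 14 lower at 6 h. How far differences in the share of cycling cells between libraries entered the members' changes was not tested.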

How the data were processed

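RNA was measured by single-end, stranded-kit RNA-seq in 11 libraries of RWPE1 cells. Per the submitters' processing notes the authors used FastQC, Trimmomatic, STAR on hg38 and featureCounts, and they deposited raw counts per Ensembl gene. The strand setting of the counting was not given in the sources used here, so reads of overlapping genes may not be separable.

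Of 60676 gene IDs, 60357 were in GENCODE release 44 (GRCh38), which gave symbols, exon lengths and overlaps. Counts were filtered with filterByExpr, scaled by TMM and tested with edgeR 4.0.16 (quasi-likelihood, R 4.3.3), all 11 libraries in 1 fit by time point, with Benjamini-Hochberg adjustment over 19981 genes. log2 CPM used a prior count of 2. The biological coefficient of variation was 19.6%. Depth was 27496009 to 49488345 counts per library. The test was checked on simulated counts.

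Members and lists were chosen with earlier results of these data known. Values in every library are printed for PCNA and MCM2, for the members with the highest and lowest average change in each role, and for any called in both directions. From each other list (other replication, other G1/S control, mitosis, hypoxia, basal, epithelial, luminal, fibroblast and immune markers) the highest and lowest were named. Alternatives were limma-voom (limma 3.58.1), with and without sample weights, DESeq2 1.42.0, median-of-ratios scaling, library size alone, no filter, at least 10 counts in every library, only the 2 time points compared, a replicate block and each library left out. Promoter letters were searched with Python 3.11.15 in the RefSeq windows.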

Additional observations from a re-analysis of the deposited data

Results flagged for a closer look

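Beyond the comparisons with normoxia, 19 changes between neighbouring hypoxic times passed the test of the difference itself (edgeR quasi-likelihood test, adjusted p under 0.05 over all tested genes). From 6 h to 12 h, 6.82% of the members were higher and 0% lower, against 1.88% and 3.07% of all tested genes. From 12 h to 24 h the shares were 31.8% and 4.55%, against 15.1% and 13.3%. Of the 3 calls from 6 h to 12 h and the 16 from 12 h to 24 h, 0 were kept under all alternatives. The groups were too small, at 2 or 3 libraries, for a test of outlying samples.

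From 6 h to 12 h CDT1 rose by 0.83 ± 0.18 SE (adjusted p = 0.0224), RFC2 by 0.52 ± 0.13 SE (adjusted p = 0.0405) and PRIM1 by 0.58 ± 0.15 SE (adjusted p = 0.0441). Each call was lost when some single library was left out, CDT1 without 6 h replicate 1 or 2 or 12 h replicate 2 or 3, and RFC2 and PRIM1 without any 1 of the 9 libraries of 0 h, 6 h and 12 h (adjusted p up to 0.105, 0.170 and 0.205).

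From 12 h to 24 h the largest rises were POLE2 (1.08, adjusted p = 0.00874), GMNN (1.05, adjusted p = 0.00258), TK1 (0.89, adjusted p = 0.0332) and PCNA (0.83, adjusted p = 0.00736). RFC4 rose by 0.77, E2F1 by 0.75, GINS2 by 0.73, CDC45 by 0.69, PRIM1 by 0.66, RPA2 by 0.64, SLBP by 0.60, RFC5 by 0.53, MCM7 by 0.47 and PRIM2 by 0.47. E2F2 fell by 1.67 (adjusted p = 0.00885) and GINS1 fell by 0.53 (adjusted p = 0.0351). GMNN, PCNA and RPA2 kept their call whichever library was left out, but with only the 12 h and 24 h libraries in the edgeR fit 0 of all 19981 tested genes were called. Without 24 h replicate 2 the calls of CDC45, GINS1, GINS2, RFC4, POLE2, TK1, E2F1, E2F2 and SLBP were lost (adjusted p up to 0.421, that of SLBP), and without 24 h replicate 1 those of MCM7, RFC5 and PRIM2. The call of PRIM1 was lost without 12 h replicate 2 (adjusted p = 0.0530).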

How the results depend on the processing

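Over the 18 members printed in every library, 5 comparisons and 20 alternatives (1800 values), 1577 kept their call or their lack of one. Another 165 lost the call, 52 gained it and 6 changed sign with a call in the main or the alternative fit. A change of sign with no call in either fit was counted among the 1577. By library size alone RFC2 was at −0.44 at 12 h and −0.52 at 24 h, MCM2 at −0.82, FEN1 at −0.039 and SLBP at −0.44 at 24 h, and MCM2 at 24 h was at −0.50 without 24 h replicate 1 and 0.34 without replicate 2. Library size alone gave 3 higher at 6 h, 1 higher and 21 lower at 12 h, 1 and 25 at 24 h, 0 and 1 from 6 h to 12 h, and 1 and 7 from 12 h to 24 h. Over all 19981 tested genes it gave 2713 higher at 6 h, 2116 higher and 8444 lower at 12 h, and 2222 and 11305 at 24 h. From 6 h to 12 h it gave 99 and 591 of them, and from 12 h to 24 h 848 and 4610. With sample weights limma-voom gave 8 higher and 1 lower at 24 h, 10 and 3 from 6 h to 12 h, and 1 and 0 from 12 h to 24 h, and without weights 1 lower from 6 h to 12 h, where DESeq2 gave 7 and 2. Without a filter there were 2 lower from 6 h to 12 h and 8 higher from 12 h to 24 h. With only the 2 time points in the fit there were 6 lower at 24 h, 5 and 2 from 6 h to 12 h, and 0 and 0 from 12 h to 24 h. That last fit also called 0 of all 19981 tested genes. Leaving out each library gave 6 to 12 higher and 14 to 19 lower at 6 h, 5 to 13 and 7 to 16 at 12 h, 11 to 15 and 7 to 12 at 24 h, 0 to 10 and 0 to 3 from 6 h to 12 h, and 6 to 14 and 0 to 7 from 12 h to 24 h. The cause of these changes was not tested. Deviations of replicates of the same number correlated from −0.156 to 0.207 between times. With 2 or 3 libraries per time these values cannot show whether the numbers pair libraries. The replicate block gave 1 higher from 6 h to 12 h and 1 lower from 12 h to 24 h, and 8 and 15 at 6 h. Low counts limit GINS4 (9 to 40 counts at 24 h), POLA2 (17 to 52 at 6 h) and E2F2 (20 to 35 at 24 h).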

Other observations

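Calls were also seen among markers of cell identity that entered no comparison of the replication genes. Of 5 epithelial markers, 3 were higher and 1 lower at 6 h, 3 and 0 at 12 h, and 4 and 1 at 24 h in edgeR. Among all tested genes 25.1% were higher and 27.7% lower at 6 h, 24.2% and 27.1% at 12 h, and 29.9% and 31.3% at 24 h. KRT18, a keratin of simple epithelia, rose from 102 ± 7.44 CPM (SD, n = 3) in normoxia to 570 ± 124 CPM (SD, n = 2) at 24 h (2.48 ± 0.18 SE, adjusted p = 1.13e-06). CDH1, the epithelial cadherin, was at 324 ± 25.2 CPM (SD, n = 3) in normoxia and 156 ± 24.8 CPM (SD, n = 2) at 24 h (−1.06 ± 0.17 SE, adjusted p = 0.000198). Its average change over the 3 times was −0.21, and at 12 h 0 of the 5 epithelial markers had a change below 0. COL1A1 was lower at 24 h (−0.86 ± 0.21 SE, adjusted p = 0.00293). Of the 2 luminal markers tested, 1 was higher at 6 h and 12 h, and of the 2 immune markers tested, 1 was higher and 1 lower at each time. These counts are to be read against the same shares of all tested genes. PTPRC, the pan-leukocyte marker, held at most 13 counts in any library.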
